A study of Mus musculus with 7 samples.

Results

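The clock output transcription factors are genes through which the circadian clock of a cell reaches the genes it times. Dbp, Tef, Hlf, Nfil3, Ciart, Bhlhe40 and Bhlhe41 were taken as the members, 7 of 19938 genes with a probe set of their own, and for each gene the brightest probe set over the 7 arrays was read. Each has 1 probe set except Ciart, which has 2, so the 7 genes hold 8 of the 35556 probe sets. Liver RNA was measured on whole-transcript microarrays, with 1 array per mouse, in 3 Trpm6-deficient and 4 control male littermates on a C57BL/6 background. Which mice shared a litter is not given in the sources used here, nor is the time of day at which the livers were taken. The mice lived under a cycle of artificial light and dark.

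The Trpm6-deficient mice were homozygous for a deletion of exon 17 of Trpm6, a Mg2+-permeable channel kinase gene, and carried Sox2-Cre. Cre under the Sox2 promoter acts in the epiblast, so the deletion reached the tissues of the whole animal and not the liver alone. The controls carried 1 floxed and 1 wild-type Trpm6 allele. The Trpm6 probe set read 5.50, 5.37 and 5.50 on the log2 scale in Trpm6-deficient 1, 2 and 3, against 5.53, 5.51, 5.50 and 5.50 in controls 1, 2, 3 and 4 (difference -0.05, adjusted p = 0.882 from limma), and whether it covers exon 17 is not known here, so it does not check the labels. Trpm6-deficient 1 and 3 were 13 weeks old and Trpm6-deficient 2 was 12 weeks old, whereas controls 3 and 4 were 13 weeks old and controls 1 and 2 were 12 weeks old. The samples were pieces of the left lobe, in which fewer cells of a type and less RNA per cell cannot be told apart. Values are log2 expression values, in which 1 unit is a doubling, and levels were compared between livers for 1 probe set and not between genes. The median of the arrays lay between 6.43 and 6.48.

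In the clock of mammalian cells, CLOCK and BMAL1 (the product of Arntl) bind E-box sequences and switch on genes, among them those of their own inhibitors, the period and cryptochrome proteins. DBP, TEF and HLF are PAR bZIP factors, activators that bind D-box sequences, and NFIL3 (also called E4BP4) is a repressor that binds the same sequences. In mouse liver Dbp RNA peaks in the light phase and Nfil3 RNA is known to run in the opposite phase. CIART (also called CHRONO) and the basic helix-loop-helix proteins BHLHE40 and BHLHE41 (DEC1 and DEC2) repress transcription driven by CLOCK and BMAL1. In liver the PAR bZIP factors are known for timing genes of detoxification and lipid metabolism.

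On GRCm38.p6 Dbp lies at chr7:45705100-45710203, Tef at chr15:81802673-81826863, Hlf at chr11:90336535-90390917 and Nfil3 at chr13:52967209-52982878. Ciart lies at chr3:95878500-95882257, Bhlhe40 at chr6:108660629-108666925 and Bhlhe41 at chr6:145858243-145865420. RefSeq start windows of 300 bases were matched for 6 of the 7 members, 7 windows in all since Tef has 2 start sites, and both strands were searched. The E-box CACGTG was found in 4 of the 7 windows, those of Ciart, Bhlhe41 and both of Tef, and in 7.15% of all 32851 windows of this length. The stretch upstream of Ciart is shown because it holds 3 E-boxes and because Ciart was among the members that varied most between the livers. It is the 221 bases at chr3:95882258-95882478, minus strand, with the E-boxes in capitals.
Ciart: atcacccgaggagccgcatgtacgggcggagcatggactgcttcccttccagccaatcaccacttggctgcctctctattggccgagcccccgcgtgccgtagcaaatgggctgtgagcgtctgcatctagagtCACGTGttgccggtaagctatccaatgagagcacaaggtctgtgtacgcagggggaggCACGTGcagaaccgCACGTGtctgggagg
The single E-boxes of Tef and Bhlhe41 stand in these short stretches, again in capitals, at chr15:81802535-81802562 and chr15:81811265-81811292 on the plus strand and at chr6:145865557-145865584 on the minus strand.
Tef, first start: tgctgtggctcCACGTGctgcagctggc
Tef, second start: acctggcccagCACGTGtctacatcgtt
Bhlhe41: ggtacgttccgCACGTGagctgggtgct
Nfil3 is known as a target of the REV-ERB receptors, which bind elements that contain TAGGTCA. Its window holds that element on the opposite strand, 12 bases before the start site of the window. This start site and the element lie inside the span of Nfil3 given above, and not upstream of the whole gene. The element is shown in capitals as read along the gene, at chr13:52981040-52981062 on the minus strand.
Nfil3: gcgctcggaacTGACCTActaac
TAGGTCA occurred in 2.61% of the 32851 windows and in no other window of the members. The D-box, searched as TTATGTAA or TTACGTAA, occurred in 1.06% of the windows and in none of the 7. The Dbp and Hlf windows held none of the 3 motifs. Sequence outside the windows of 300 bases was not searched, so motifs farther from the start sites would not show. These matches are a description of the sequence and were not tested for binding.

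Control 3 stood apart from the other livers in this family, and it is therefore described before the group comparison. It lay outside the range of the other 6 livers for 5 of the 7 members, at the top for Dbp, Tef, Ciart and Bhlhe41 and at the bottom for Nfil3. Over all probe sets control 3 was outside that range in 29.0%. Trpm6-deficient 3 was outside the range of the other livers for 4 members, and in 30.8% of all probe sets. The count alone thus hardly separates these 2 livers, and the size of the gaps does. For Dbp, Tef and Ciart control 3 was outside by at least 1 log2 unit, a distance that control 3 reached in 72 probe sets (0.202%). No other liver was that far outside the range for any member, although 23 to 74 probe sets were in each of them. The members and lists were chosen with earlier results of these data known, so these counts are a description.

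**Figure D1:**
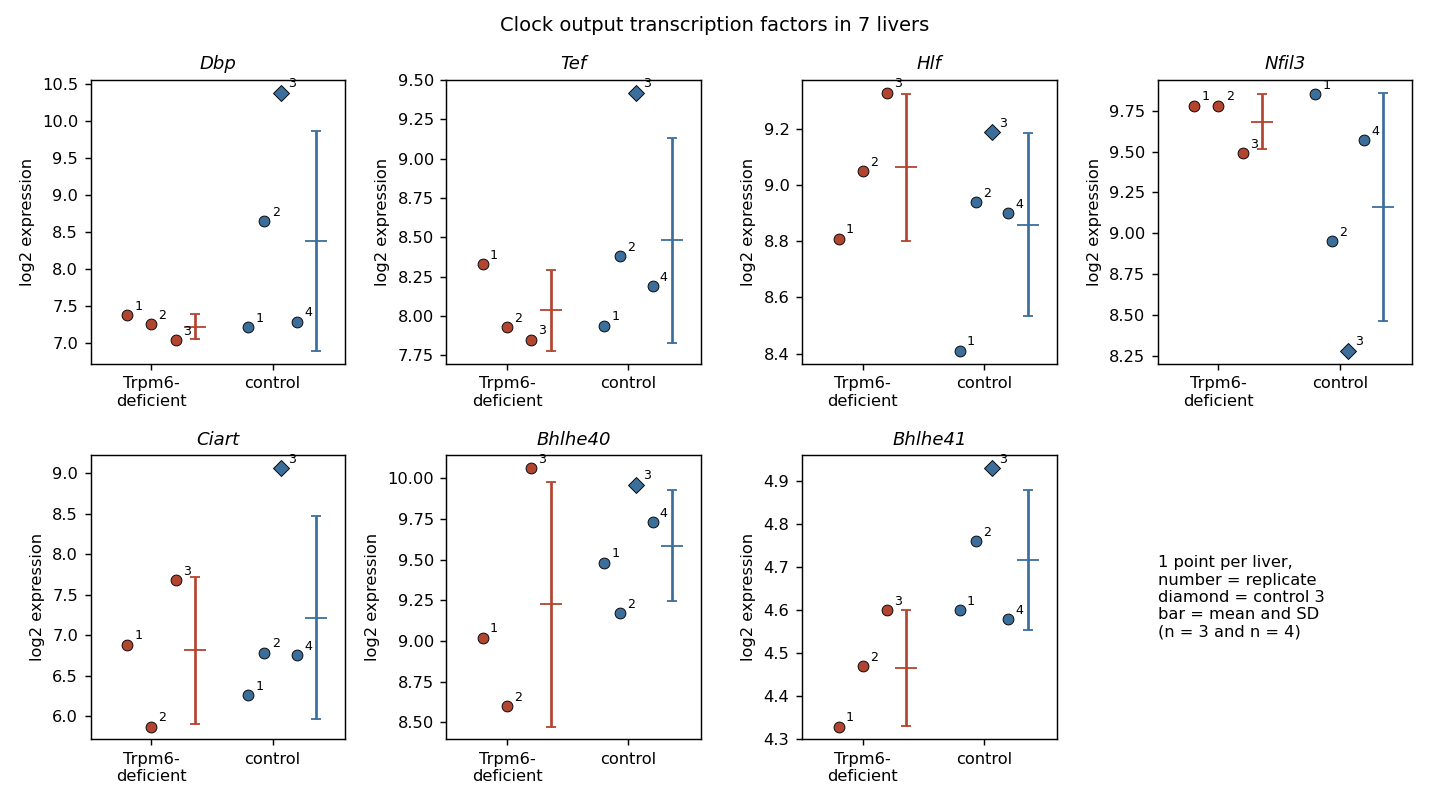
Log2 expression of the 7 clock output transcription factors (y axes, each with its own scale), with 1 numbered point per liver (Trpm6-deficient, n = 3; control, n = 4; control 3 as a diamond) and the mean with SD as bars. Control 3 is the highest liver for Dbp (10.38), Tef, Ciart and Bhlhe41 and the lowest for Nfil3 (8.28), and the groups overlap for each gene.

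Dbp, the PAR bZIP factor named for its binding to the albumin D-site, varied most of the members. Its log2 values were 7.37, 7.25 and 7.03 in Trpm6-deficient 1, 2 and 3, against 7.21, 8.64, 10.38 and 7.28 in controls 1, 2, 3 and 4. All the Trpm6-deficient livers and controls 1 and 4 thus lay within a narrow low band, with control 2 above it and control 3 higher still. Control 3 was 2.67 log2 units above the mean of the other 3 controls, a 6.36-fold difference. Its gap to the next liver, 1.74, was matched or passed by control 3 in 9 of the 35556 probe sets, Dbp itself included. Dbp averaged 7.22 ± 0.17 (SD, n = 3) in Trpm6-deficient livers and 8.38 ± 1.49 (SD, n = 4) in control livers, a difference of -1.16 (standard error 0.78, 95% interval -3.04 to 0.715, adjusted p = 0.851 from limma). Without control 3 the control mean was 7.71 ± 0.81 (SD, n = 3) and the difference -0.49 (standard error 0.42, interval -1.55 to 0.56, adjusted p = 0.899). The lower mean of the Trpm6-deficient livers therefore did not pass the test with or without control 3.

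Tef, the PAR bZIP factor named for the thyrotroph cells of the pituitary, had log2 values of 8.33, 7.93 and 7.85 in Trpm6-deficient 1, 2 and 3, against 7.94, 8.38, 9.42 and 8.19 in controls 1, 2, 3 and 4. Control 3 was again the highest liver, 1.25 above the mean of the other controls (2.38-fold), and the remaining 6 livers spanned 7.85 to 8.38 with the groups mixed. The difference between groups was -0.45 (standard error 0.36, interval -1.31 to 0.42, adjusted p = 0.867 from limma), and without control 3 it was -0.13 (standard error 0.17, interval -0.57 to 0.31, adjusted p = 0.924). Hlf, the third PAR bZIP factor, had 8.81, 9.05 and 9.33 in Trpm6-deficient 1, 2 and 3, against 8.41, 8.94, 9.19 and 8.90 in controls 1, 2, 3 and 4. Here control 3 was inside the range, between Trpm6-deficient 2 and 3, and the lowest liver was control 1. The difference was 0.20 (standard error 0.21, interval -0.29 to 0.70, adjusted p = 0.893 from limma) and 0.31 (standard error 0.20, interval -0.20 to 0.82, adjusted p = 0.895) without control 3. Dbp and Tef thus had their highest level in the same liver, whereas Hlf spanned 0.92 log2 units in all, against 3.35 for Dbp and 1.57 for Tef.

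Nfil3, the D-box repressor, was lowest in the livers where Dbp was highest. Its log2 values were 9.78, 9.78 and 9.49 in Trpm6-deficient 1, 2 and 3, against 9.85, 8.95, 8.28 and 9.57 in controls 1, 2, 3 and 4. The livers with the lowest Nfil3, controls 3 and 2, were those with the highest Dbp, and the other 5 livers lay between 9.49 and 9.85. At the other end the order did not match, since the lowest Dbp was in Trpm6-deficient 3 and the highest Nfil3 in control 1. Control 3 was 1.18 log2 units below the mean of the other controls, which were 2.26-fold higher. The group means were 9.68 ± 0.17 (SD, n = 3) in Trpm6-deficient livers and 9.16 ± 0.70 (SD, n = 4) in control livers, a difference of 0.52 (standard error 0.37, interval -0.38 to 1.42, adjusted p = 0.852 from limma). Without control 3 it was 0.23 (standard error 0.25, interval -0.40 to 0.86, adjusted p = 0.909), so the Nfil3 difference, opposite in sign to that of Dbp, did not pass the test either.

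**Figure D2:**
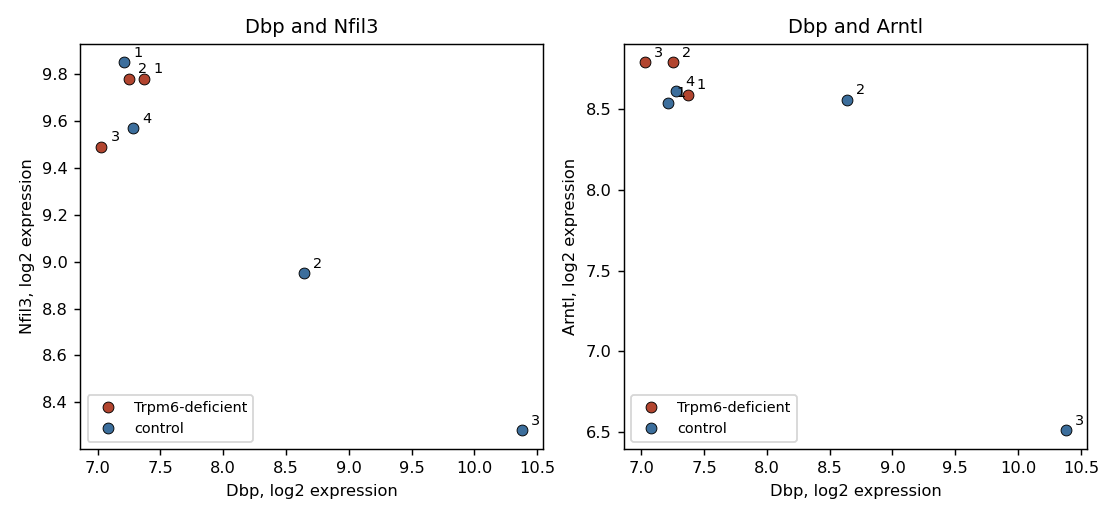
Log2 expression of Nfil3 (left) and of Arntl (right) on the y axes against that of Dbp on the x axes, with 1 numbered point per liver (Trpm6-deficient, n = 3; control, n = 4). Control 3 combines the highest Dbp (10.38) with the lowest Nfil3 (8.28) and Arntl (6.51), and control 2, second in Dbp (8.64), is second lowest for Nfil3 (8.95) but not apart for Arntl (8.56).

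Ciart, the repressor of CLOCK and BMAL1 whose upstream E-boxes are shown above, had log2 values of 6.88, 5.87 and 7.68 in Trpm6-deficient 1, 2 and 3, against 6.26, 6.78, 9.06 and 6.75 in controls 1, 2, 3 and 4. Control 3 was 2.46 above the mean of the other controls (5.51-fold), but the Trpm6-deficient livers also differed among themselves, with Trpm6-deficient 2 the lowest liver of all and Trpm6-deficient 3 second to control 3. The second probe set of Ciart read 6.51, 5.97 and 6.80 in Trpm6-deficient livers, against 6.43, 6.41, 8.48 and 6.53 in control livers, with the same highest and lowest livers. The difference was -0.40 (standard error 0.76, interval -2.23 to 1.43, adjusted p = 0.947 from limma) for the brighter probe set, and without control 3 it changed sign to 0.21 (standard error 0.48, interval -1.0 to 1.43, adjusted p = 0.962). It also changed sign, to 0.07 (adjusted p = 0.998), without Trpm6-deficient 2. For the second probe set the difference was -0.54 (adjusted p = 0.896 from limma), and without control 3 it kept its sign but was -0.03 (adjusted p = 0.994). No direction can therefore be given for Ciart.

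Bhlhe40, the DEC1 repressor, which also responds to hypoxia and other stimuli, followed another order. Its log2 values were 9.02, 8.60 and 10.06 in Trpm6-deficient 1, 2 and 3, against 9.48, 9.17, 9.96 and 9.73 in controls 1, 2, 3 and 4. The highest and the lowest liver were both Trpm6-deficient, and control 3 was inside the range. The difference was -0.36 (standard error 0.37, interval -1.24 to 0.52, adjusted p = 0.895 from limma), and without control 3 it was -0.23 (standard error 0.40, adjusted p = 0.944). Trpm6-deficient 2 and 3 moved it further than control 3 did, and Trpm6-deficient 1 did not. The difference was -0.78 without Trpm6-deficient 3 (unadjusted p = 0.0249, adjusted p = 0.756 from limma) and -0.05 without Trpm6-deficient 2 (adjusted p = 0.994). It was -0.255 without Trpm6-deficient 1 (adjusted p = 0.918). Bhlhe41, the DEC2 repressor, had 4.33, 4.47 and 4.60 in Trpm6-deficient 1, 2 and 3, against 4.60, 4.76, 4.93 and 4.58 in controls 1, 2, 3 and 4. All of these lie below the lower quartile of every array (5.05 to 5.11), and whether the probe set is above background was not examined. Its difference, -0.25 (standard error 0.11, interval -0.51 to 0.01, unadjusted p = 0.0577, adjusted p = 0.755 from limma), had the smallest unadjusted p of the 7 members, and it was -0.18 (adjusted p = 0.895) without control 3.

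**Figure D3:**
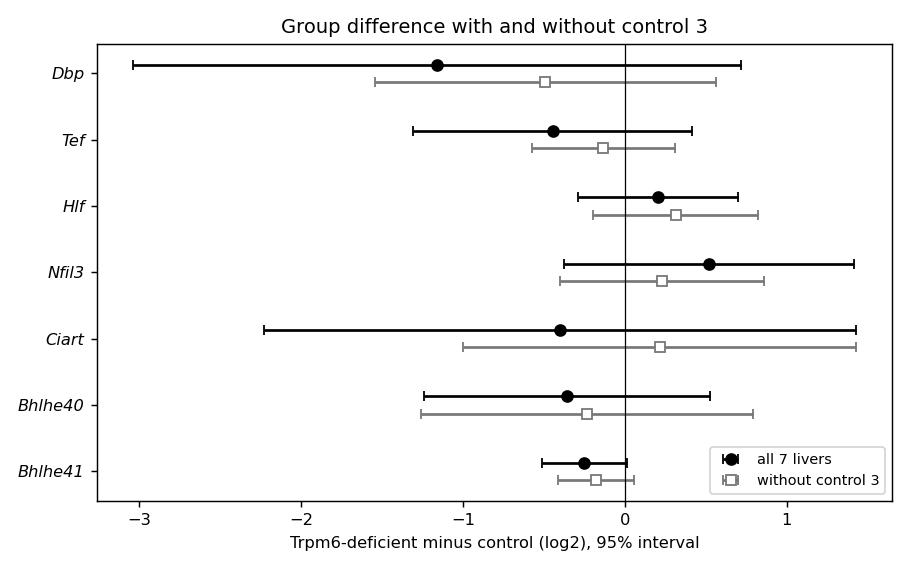
Difference of group means, Trpm6-deficient minus control, in log2 units on the x axis for each clock output factor, with 95% intervals from limma, over all 7 livers (filled circles) and without control 3 (open squares). Every interval includes 0, and that of Dbp reaches down to -3.04 with control 3 and to -1.55 without it.

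None of the 7 members reached an adjusted p of 0.1 in limma, which 46 of 35556 probe sets (0.129%) did, 0.0759% higher and 0.0534% lower in Trpm6-deficient livers. None reached an unadjusted p of 0.05 either, which 2444 (6.87%) did, 3.85% higher and 3.03% lower. Without control 3 none passed either threshold, against 7 probe sets (0.0197%) and 2051 (5.77%). The groups overlapped for all 7 members. They did not overlap in 5.33% of all probe sets, a share so small that overlap in all 7 is unremarkable. The median difference of the members was -0.36, and -0.13 without control 3, beside a median of 0.00 over all probe sets in both fits. In a two-sided exact permutation test of each member over the 35 assignments of 3 livers among 7, p lay between 0.171 for Bhlhe41 and 0.8 for Ciart, and the smallest p this design allows is 0.0571. The intervals remain wide, since that of Dbp runs from -3.04 to 0.715, so these livers do not show that the groups are alike.

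Within the ages the differences of Dbp were -0.68 at 12 weeks (1 Trpm6-deficient against 2 control livers) and -1.63 at 13 weeks (2 against 2), where control 3 lies. For Tef they were -0.23 and -0.72, and for Nfil3 0.38 and 0.71. The sign was thus the same at both ages for these 3 genes, but it depended largely on controls 2 and 3. At 12 weeks Trpm6-deficient 2 was close to control 1 (Dbp 7.25 and 7.21, Tef 7.93 and 7.94, Nfil3 9.78 and 9.85). At 13 weeks Trpm6-deficient 1 and 3 lay on both sides of control 4 for each of these genes (Dbp 7.37 and 7.03, beside 7.28). With 1 Trpm6-deficient liver at 12 weeks no test was made within that age. With age in the fit the differences were -1.25 for Dbp, -0.52 for Tef and 0.58 for Nfil3, with adjusted p between 0.715 and 0.892 from limma for all 7 members. Without control 3 they were -0.38 for Dbp, -0.17 for Tef and 0.22 for Nfil3. Bhlhe40 and Ciart were the members whose levels went most with age. Bhlhe40 averaged 9.69 in the 4 livers of 13 weeks and 9.08 in the 3 livers of 12 weeks (age term 0.69, standard error 0.28, unadjusted p = 0.0519, adjusted p = 0.690 from limma). Ciart averaged 7.59 at 13 weeks and 6.30 at 12 weeks (age term 1.4, standard error 0.59, unadjusted p = 0.0594, adjusted p = 0.690). Without control 3, a liver of 13 weeks, the age term was 0.82 for Ciart (standard error 0.40, adjusted p = 0.836 from limma) and 0.67 for Bhlhe40 (standard error 0.35, adjusted p = 0.836), an alternative chosen after seeing the data. The age term passed the adjusted test in 0 probe sets and an unadjusted p of 0.05 in 2559, none of them a member.

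Control 3 was far apart in Arntl and Per3 of the core clock, which drives the members, as well. Of the 10 measured core clock genes it was the highest liver for 3 and the lowest for 4. Over all probe sets it was outside the range of the other livers in 29.0%. For Clock, Rora, Cry1, Cry2 and Nr1d2 it was outside by 0.34 or less, and for Per1, Per2 and Nr1d1 it was inside. Arntl, which encodes BMAL1, had log2 values of 8.59, 8.79 and 8.79 in Trpm6-deficient 1, 2 and 3, against 8.54, 8.56, 6.51 and 8.61 in controls 1, 2, 3 and 4. Control 3 was 2.03 below the lowest of the other livers, which lay close together in both groups. Per3, a period gene, was highest in control 3 (8.41, against 6.17 to 6.67 in the other livers). Outside the core clock list, so were the mitotic kinase gene Wee1 (9.22, against 6.71 to 7.33) and the deubiquitinase gene Usp2 (10.61, against 7.36 to 8.67). Control 2 was not apart for these genes, but it had the highest level of Nr1d1, which encodes the receptor REV-ERB alpha, at 11.97, against 9.36 to 11.11 in the other livers. Controls 3 and 2 were together the highest livers for the cryptochrome gene Cry2, at 8.86 and 8.77, against 7.99 to 8.53 in the other livers.

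**Figure D4:**
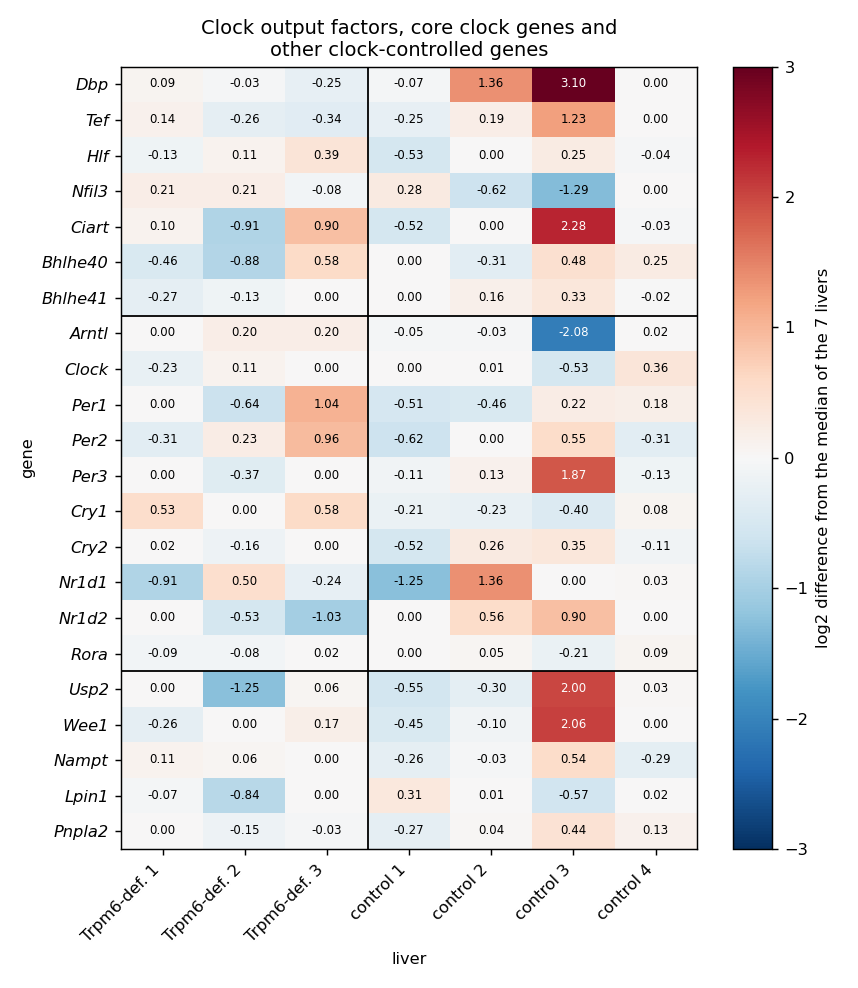
Log2 difference from the median of the 7 livers (colour and printed value, colours capped at 3 in either direction) for the clock output factors (top block), measured core clock genes (middle block) and other clock-controlled genes without Elovl3 (bottom block), with 1 column per liver. Control 3 is apart in Dbp (3.10), Ciart (2.28), Wee1 (2.06) and Usp2 (2.00) on the high side and in Arntl (-2.08) and Nfil3 (-1.29) on the low side.

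Between the groups, none of the 10 measured core clock genes of 12 listed passed limma's adjusted test. An unadjusted p of 0.05 was reached by 2, of which 1 was higher and 1 lower, and by 6.87% of all probe sets. Cry1, a cryptochrome gene, had 8.40, 7.87 and 8.45 in Trpm6-deficient livers, against 7.66, 7.64, 7.47 and 7.95 in control livers (difference 0.56, standard error 0.18, adjusted p = 0.620). Nr1d2, which encodes REV-ERB beta, had 9.29, 8.76 and 8.26 in Trpm6-deficient livers, against 9.29, 9.85, 10.19 and 9.29 in control livers (difference -0.89, standard error 0.32, adjusted p = 0.672). Without control 3 the differences were 0.49 for Cry1 and -0.71 for Nr1d2, and Nr1d2 no longer reached the unadjusted threshold. Nr1d2 shared with Dbp its highest livers, controls 3 and 2, and its lowest, Trpm6-deficient 3. The median difference of the list was -0.02, and the remaining 8 genes lay between -0.56 for Per3 and 0.67 for Arntl, both nearer 0 without control 3, at -0.09 for Per3 and 0.15 for Arntl. Over all livers Clock was at 0.00, Rora at -0.03, Cry2 at -0.04, Nr1d1 at -0.25, Per1 at 0.28 and Per2 at 0.39, the last 2 at 0.40 and 0.60 without control 3.

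For the members whose values spanned at least 1 log2 unit, the genes most like them were sought as those with the smallest root mean square difference of log2 values, each centred on its mean over the 7 livers. Those nearest to Dbp were Per3 (0.55), Wee1 (0.60) and the second probe set of Ciart (0.65), and those nearest to Ciart were Usp2 (0.27), Per3 (0.46) and Wee1 (0.47). Tef was nearest to the tetraspanin gene Tspan4 (0.14), followed by Marveld1 (0.24) and the fructose transporter gene Slc2a5 (0.24). Nfil3 was nearest to the galectin-like gene Lgalsl (0.16), the vasopressin receptor gene Avpr1a (0.17) and the corepressor gene Irf2bp2 (0.21). These genes shared with their member the position of control 3: without it, none of the 3 nearest genes of Dbp, Tef, Nfil3 and Ciart stayed among the nearest. For Bhlhe40 they were Fam107a (0.22), the liver factor gene Foxa3 (0.24) and the ribonucleotide reductase gene Rrm2 (0.26), of which 1, Fam107a, stayed. Among the 21 pairs of members the measure was largest for Dbp and Nfil3 (1.65), while for Dbp it was 0.68 with Tef and 0.76 with Ciart. It was smallest for Hlf and Bhlhe41 (0.28), the members with the narrowest ranges, since the measure also follows the size of the variation.

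Of 8 genes known as targets of the PAR bZIP factors in mouse liver 5 were measured, and none passed limma's adjusted test. An unadjusted p of 0.05 was reached by 2, both with the higher mean in Trpm6-deficient livers, and by 6.87% of all probe sets. The median difference of the list was 0.35, and 0.72 without control 3. Nr1i3, which encodes the xenobiotic receptor CAR, had log2 values of 10.86, 10.54 and 11.02 in Trpm6-deficient livers, against 9.93, 9.49, 10.27 and 10.08 in control livers. The groups did not overlap, as in 5.33% of all probe sets. The difference was 0.86 (standard error 0.21, adjusted p = 0.429 from limma), and it was 0.97 (adjusted p = 0.522) without control 3. The mean of Dbp, a known activator of Nr1i3, was lower in Trpm6-deficient livers without passing the test. A relation of Nr1i3 to Dbp was not tested. Cyp2b10, the classical CAR target, had 9.70, 10.04 and 7.94 in Trpm6-deficient livers, against 5.66, 5.69, 6.12 and 6.29 in control livers (difference 3.29, standard error 0.51, adjusted p = 0.180). Cyp7a1, the rate-limiting enzyme gene of bile acid synthesis, had its highest value in control 3 (12.75), as Dbp did, but was next in Trpm6-deficient 2 (12.60), where Dbp was low. Its difference was 0.35 (adjusted p = 0.931), and 0.72 without control 3. Ppara, the gene of a receptor that turns on fatty acid oxidation genes, had 10.70, 11.12 and 10.52 in Trpm6-deficient livers, against 10.98, 11.29, 11.47 and 11.05 in control livers. It had its highest levels in controls 3 and 2 and its lowest in Trpm6-deficient 3, as Dbp did, and its difference was -0.42 (adjusted p = 0.754), and -0.33 without control 3. For Alas1, the rate-limiting enzyme gene of heme synthesis, the difference was 0.10 (adjusted p = 0.981), and -0.01 without control 3.

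**Figure D5:**
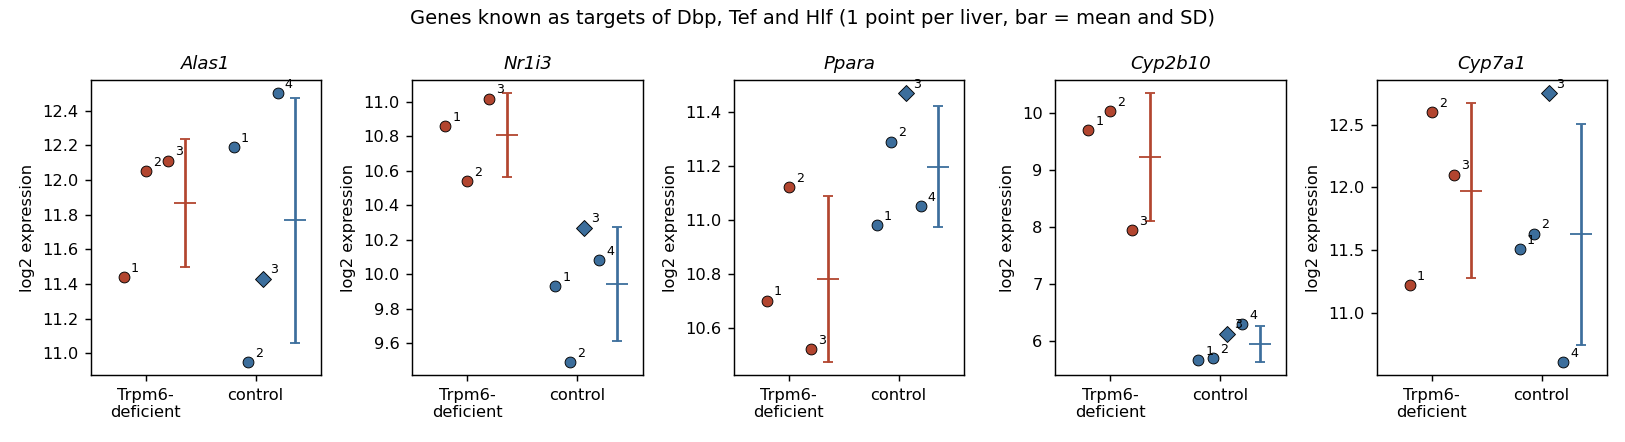
Log2 expression (y axes, each with its own scale) of the 5 measured genes known as targets of Dbp, Tef and Hlf, with 1 numbered point per liver (Trpm6-deficient, n = 3; control, n = 4; control 3 as a diamond) and the mean with SD as bars. The groups do not overlap for Nr1i3 and Cyp2b10, and do for Alas1, Ppara and Cyp7a1. Over all probe sets they do not overlap in 5.33%.

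Of the other lists read beside the members, none had a gene past limma's adjusted test. Over all probe sets 6.87% reached an unadjusted p of 0.05, 3.85% higher and 3.03% lower in Trpm6-deficient livers. Of 6 clock-controlled genes, 1 was lower with an unadjusted p within 0.05, the fatty acid elongase gene Elovl3 (difference -5.50, standard error 0.87, adjusted p = 0.191). Of 6 genes of the related C/EBP family 1 was lower, Cebpa (-0.42, adjusted p = 0.603), and of 6 basic helix-loop-helix repressors related to Bhlhe40 and Bhlhe41 1 was lower, Hes6 (-0.64, adjusted p = 0.627). Of 8 genes that glucocorticoids induce 1 was higher, Mt1 (2.16, adjusted p = 0.665), and of 7 measured genes of fasting and feeding 2 were, Pdk4 (1.52, adjusted p = 0.429) and Srebf1 (0.66, adjusted p = 0.649).

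The summed linear level of 6 hepatocyte markers, given as its log2, lay between 16.42 and 16.45 in Trpm6-deficient livers and between 16.33 and 16.49 in control livers, with control 3 the lowest. That of 7 Kupffer cell markers lay between 11.94 and 12.13 in Trpm6-deficient livers and between 11.65 and 12.63 in control livers, with control 1 the lowest and control 3 (12.63) next to control 2 (12.61) at the top. For 6 lymphocyte markers it was 8.39 to 8.54 in Trpm6-deficient livers and 8.34 to 8.73 in control livers, highest in control 3. The part of other cell types in the members' values was not tested. Stellate cell markers Reln (0.30, adjusted p = 0.586 from limma) and Des (0.28, adjusted p = 0.672) and the bile duct marker Krt19 (0.33, adjusted p = 0.672) reached an unadjusted p of 0.05, all higher in Trpm6-deficient livers. No hepatocyte, Kupffer cell, lymphocyte, endothelial or neutrophil marker did, and 6.87% of all probe sets did. The other stellate cell markers were at 0.13 (Dcn), -0.02 (Col3a1), -0.03 (Col1a1) and -0.21 (Lrat). The other bile duct markers were at 0.16 (Krt7), 0.165 (Sox9) and -0.06 (Epcam). The summed levels overlapped between Trpm6-deficient and control livers, at 12.86 to 13.32 against 12.7 to 13.09 (stellate) and 9.15 to 9.43 against 9.07 to 9.36 (bile duct).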

How the data were processed

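Liver RNA of 3 Trpm6-deficient and 4 control mice was hybridised to GeneChip Mouse Gene arrays, 1 per mouse. The authors ran RMA in Affymetrix Expression Console 1.4.0, which subtracts background, equalizes the arrays' distributions and combines probes, and deposited log2 values. A change common to most genes would therefore not show. All 7 columns were matched to a mouse by its label. Gene symbols came from the platform annotation (21789 probe sets with 1 symbol, 1621 with several, 12146 with none), and promoter sequences and positions from RefSeq, GRCm38.p6. The values were fitted with limma 3.58.1 in R 4.3.3 without a covariate, with Benjamini-Hochberg adjustment over the 35556 probe sets, after a test on simulated data. The number of arrays limits the precision. Members and lists were chosen with earlier results of these data known. The named genes are the members, the measured genes of the core clock and PAR bZIP target lists, the 3 genes nearest to each member that spanned 1 log2 unit, and genes of the other lists with an unadjusted p within 0.05. Alternatives comprised leaving out each array, age, replicate number, a filter, normalization, centring, variance models and an equal-variance t-test.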

Additional observations from a re-analysis of the deposited data

Results flagged for a closer look

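Among the 4 control livers, 1 liver was far from the other 3 for 4 of the 43 named genes examined, and each time it was control 3. No member was among them. Chance flags about 1 in 20 such groups. Arntl was at 6.51 in control 3 and at 8.54 to 8.61 in the other controls. Per3 was at 8.41 in control 3 and at 6.41 to 6.67 in the other controls. Tspan4 was at 11.56 in control 3 and at 10.40 to 10.52 in the other controls. Rrm2 was at 8.47 in control 3 and at 7.80 to 7.87 in the other controls, but Trpm6-deficient 3 was at 8.47 too, so control 3 was not apart over all 7 livers. Tspan4, Per3 and Rrm2 had been named for their likeness to a member over the same livers.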

How the results depend on the processing

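No member passed limma's adjusted test under any of the 16 alternatives that gave it a value (Bhlhe41 had none over probe sets with a mean of 5 or more), and the smallest adjusted p was 0.388, for Bhlhe41 with a replicate block. At an unadjusted p of 0.05 or less 0 members passed in the fit reported, 1 with the replicate block and 1 with the arrays centred on their medians (Bhlhe41 in both), and 0 to 2 with 1 liver left out. With 1 liver left out the differences ranged from -1.55 to -0.49 for Dbp, -0.63 to -0.13 for Tef, 0.05 to 0.33 for Hlf, 0.23 to 0.75 for Nfil3, -0.84 to 0.21 for Ciart, -0.78 to -0.05 for Bhlhe40 and -0.32 to -0.18 for Bhlhe41. Ciart, read by its brighter probe set, was the member that changed sign, without control 3 (0.21) and without Trpm6-deficient 2 (0.07). With age in the fit, it kept its sign without control 3 (-0.06). Of the 3 nearest genes, 0 were kept without control 3 for Dbp, Tef, Nfil3 and Ciart, and 1 for Bhlhe40. Over all probe sets the 46 calls became 69 when Trpm6-deficient 1 was left out, 17 for Trpm6-deficient 2 and 14 for Trpm6-deficient 3. They became 9 when control 1 was left out, 10 for control 2, 7 for control 3 and 9 for control 4. They were 8 with age, 1 with the replicate block and 70 over probe sets with a mean of 5 or more. They were 8 by an equal-variance t-test (1863 at an unadjusted p of 0.05) and 14 at an adjusted p of 0.05. The replicate numbers are not known to mark shared litters. The deviations of same-numbered livers from their group means correlated at 0.34, 0.26 and 0.09 over probe sets. Trpm6-deficient 1 and 2 correlated best with the control of their own number, and Trpm6-deficient 3 with control 4 (0.23). The fit reported treats the livers as unpaired, and whether same-numbered livers share more than a number was not tested.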
